A study of Homo sapiens with 8 samples.

Results

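A group of 39 genes of mitosis and the kinetochore was followed in A549, an established human lung adenocarcinoma cell line. They were taken by gene symbol from the 58302 genes of each library. The group holds CDK1 with its cyclins and CDC25 phosphatases, genes of the spindle checkpoint, centromere, kinetochore, spindle and cytokinesis, and markers of mitotic chromosomes, with other mitotic kinases and most motor proteins of the kinesin family left out. All 39 are among the 17676 genes that passed the filter on low counts, and they lie on 17 chromosomes. RNA sequencing covered 8 libraries in 4 groups of 2: A549 cells with an shRNA against AXL (libraries P15 and P3), A549 cells with a control shRNA (P15 and P3), A549 cells given 40 nM TP-0903 (P17 and P4), and their control A549 cells (P17 and P4). TP-0903 is a drug candidate that inhibits AXL, a receptor tyrosine kinase, and the series asks about routes by which lung cancer cells resist it. The labels call the libraries biological replicates of 1 cell line, so p-values measure the spread between these libraries. What the control cells were given, the time of treatment, the hairpin sequences and the meaning of the number after P are not stated in the labels.

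Entry into mitosis is driven by CDK1 bound to cyclin B, which CDC25 phosphatases switch on by removing inhibitory phosphates. Chromosomes then attach to spindle microtubules through kinetochores built on centromeric chromatin, and the spindle checkpoint holds back the anaphase-promoting complex until all are attached. Most of these genes are transcribed in G2 and mitosis through shared promoter elements, so their mRNA in a culture follows how many of its cells are dividing. In bulk RNA, fewer cells in G2 and mitosis and less of these RNAs per cell cannot be told apart.

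The promoters of members that differ in their response are shown first, because the 2 short elements they share are the best-known feature of genes of this timing. They are the cell cycle genes homology region (CHR, here TTTGAA or TTCGAA) and the CCAAT box, each searched on both strands. The printed bases are the 120 before the RefSeq gene start in GRCh38.p14, 5′ to 3′ on the gene's strand, with matches to either element in capitals. The locations are CCNB2 chr15:59105026-59105145 (plus strand), PRC1 chr15:90994536-90994655 (minus strand), HMMR chr5:163460512-163460631 (plus strand), CDCA8 chr1:37692396-37692515 (plus strand), INCENP chr11:62123891-62124010 (plus strand) and CDC25B chr20:3796190-3796309 (plus strand). The first 3 genes fell strongly with TP-0903, CDCA8 had the largest rise with AXL shRNA, INCENP was among those that fell least, and CDC25B was the member that did not pass.
CCNB2: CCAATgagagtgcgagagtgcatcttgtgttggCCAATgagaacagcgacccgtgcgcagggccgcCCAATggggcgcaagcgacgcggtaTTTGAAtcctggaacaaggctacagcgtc
PRC1: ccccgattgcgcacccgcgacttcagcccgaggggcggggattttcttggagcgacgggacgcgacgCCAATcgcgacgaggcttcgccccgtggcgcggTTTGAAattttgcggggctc
HMMR: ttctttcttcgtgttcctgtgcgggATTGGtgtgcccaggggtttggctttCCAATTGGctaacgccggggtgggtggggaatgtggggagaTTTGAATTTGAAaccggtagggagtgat
CDCA8: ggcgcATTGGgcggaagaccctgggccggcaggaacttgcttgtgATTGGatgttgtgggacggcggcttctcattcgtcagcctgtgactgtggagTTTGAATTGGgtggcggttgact
INCENP: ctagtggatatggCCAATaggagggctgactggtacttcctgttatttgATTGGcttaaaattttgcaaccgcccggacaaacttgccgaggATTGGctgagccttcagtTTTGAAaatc
CDC25B: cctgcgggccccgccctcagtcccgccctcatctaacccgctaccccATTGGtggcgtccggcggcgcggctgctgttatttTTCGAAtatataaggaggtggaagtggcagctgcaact
In CCNB2 and PRC1 a single CHR lay 29 and 20 bases before the start, downstream of CCAAT boxes. HMMR carried 2 CHR in tandem, and in CDCA8 the CHR and a CCAAT box on the other strand overlap. CDC25B had a window at each of 4 RefSeq starts, and the one printed is the only one of them with a CHR.

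RefSeq gave 44 windows of 250 bases before to 50 after a start for 33 members. BIRC5, BUB3, CENPM, RACGAP1, TPX2 and UBE2C are named only. A CHR stood in 30 of the 44 windows (68.2%), against 12.1% of 16813 windows of tested genes and 16.4% of all 35116 windows. In 26 of the 33 members a window held a CHR, and in CCNB1, CCNA2, PTTG1, SGO2, CENPE, CENPK and SPC24 none did. The CENPE window held no CCAAT box either. Each stretch printed above was taken from a window with a CHR. The CCAAT box stood in 75.0% of member windows, against 34.1% of windows of tested genes and 34.6% of all windows. Both together were found in 54.5% of member windows, against 4.78% of windows of tested genes and 6.38% of all. An E2F site (TTTCGCGC or TTTGGCGC, the element of genes of S phase) was rarer, at 6.82% of member windows, against 1.64% of windows of tested genes and 1.15% of all. That share is 3 windows of 2 members, CDK1 and NUSAP1, and the CDK1 windows overlap and hold the same site. CHR and CCAAT matches overlap in 2 member windows, and 7 members have more than 1 window. Letter matches describe the windows and are not shown to be bound.

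**Figure D1:**
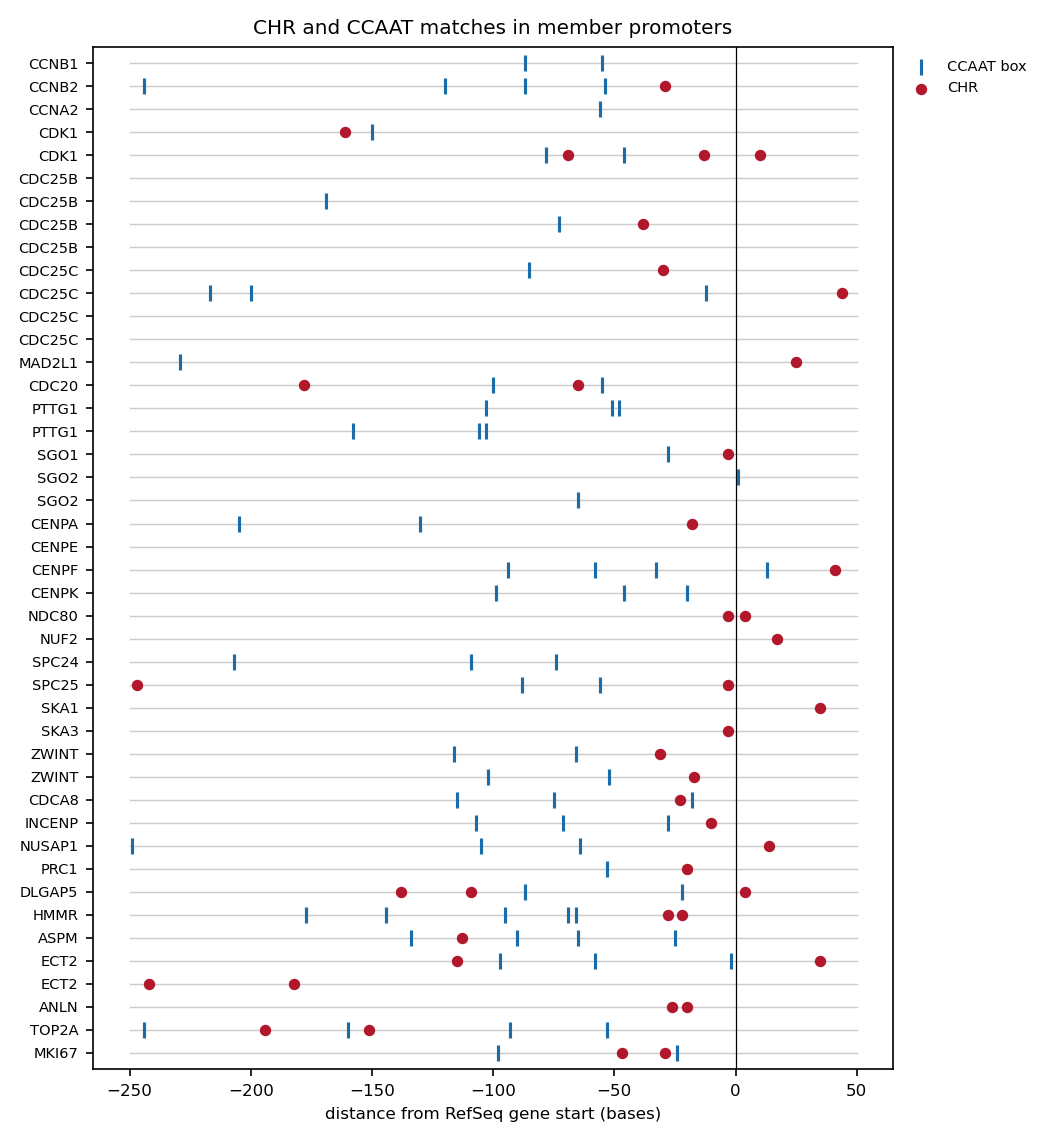
Each line is the window of 1 RefSeq start of a member, with distance from the start in bases on the x axis; dots are CHR matches and bars are CCAAT matches on either strand. A CHR stands in 30 of 44 windows, often within 50 bases of the start, with CCAAT boxes mostly upstream of it.

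Totals ran from 30067011 to 44217023 expected counts per library, deep enough for even the lowest members. Levels are given as CPM, read counts relative to library size and scaled between libraries, and as TPM, which also corrects for transcript length, where genes are compared with each other. AXL itself had 55.4 and 63.0 CPM in the AXL shRNA libraries P15 and P3, against 85.1 and 139 CPM in the control shRNA libraries of the same numbers. On the log2 scale it differed by -0.92 (SE 0.42, adjusted p = 0.12), or by -0.89 with the P number as a replicate block, where it passed (SE 0.14, adjusted p = 0.000858). With TP-0903 AXL had 280 and 153 CPM, against 216 and 105 CPM in control cells (0.43, SE 0.41, adjusted p = 0.544; with the replicate block 0.46, adjusted p = 0.0354). The AXL shRNA groups did not overlap, while those of TP-0903 did.

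TP-0903 lowered almost the whole group. In all 39 members both TP-0903 libraries lay below both control libraries, as did 30.9% of all tested genes. In edgeR's quasi-likelihood test 38 of 39 fell and none rose at an adjusted p under 0.05, while 6.35% of all tested genes fell and 4.9% rose. With the replicate block all 39 fell, where 13.4% of all genes fell and 12.9% rose. The median change was -2.67 on the log2 scale, with a range of -3.40 in SKA1 to -0.47 in BUB3, and the median over all tested genes was -0.02. The median member kept 14.3% of its control level in the P17 libraries and 18.2% in the P4 libraries. In P17, 33 of 39 kept under 25% and 37 under 50%, with CDC25B and BUB3 above that. Summed over the members, TPM came to 693.1 and 665.7 in TP-0903 libraries, against 3350 and 2516 in control libraries.

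AXL shRNA changed fewer members, and mostly upward. Of 39, 10 rose and 1 fell, which is 25.6% and 2.56% of the members, against 18.5% and 19.0% of all tested genes. With the replicate block 16 rose and 3 fell, or 41.0% and 7.69% of members, against 25.6% and 26.1% of all genes. The median change was 0.35, with a range of -0.80 in SPC24 to 1.63 in CDCA8, and -0.01 over all tested genes. Both AXL shRNA libraries lay above both control shRNA libraries in 21 members (53.8%) and below both in 5 (12.8%), against 34.4% and 35.5% of all tested genes. The median member stood at 116% of its control shRNA level in P15 and 140% in P3. Summed TPM of the members came to 586.8 and 671.0 with AXL shRNA, against 548.3 and 580.5 with control shRNA. Without a single library the median change of the members ran from 0.14 to 0.43. Of the 11 calls, 2 held without each single library in turn, those of CCNB1 and CDCA8.

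**Figure D2:**
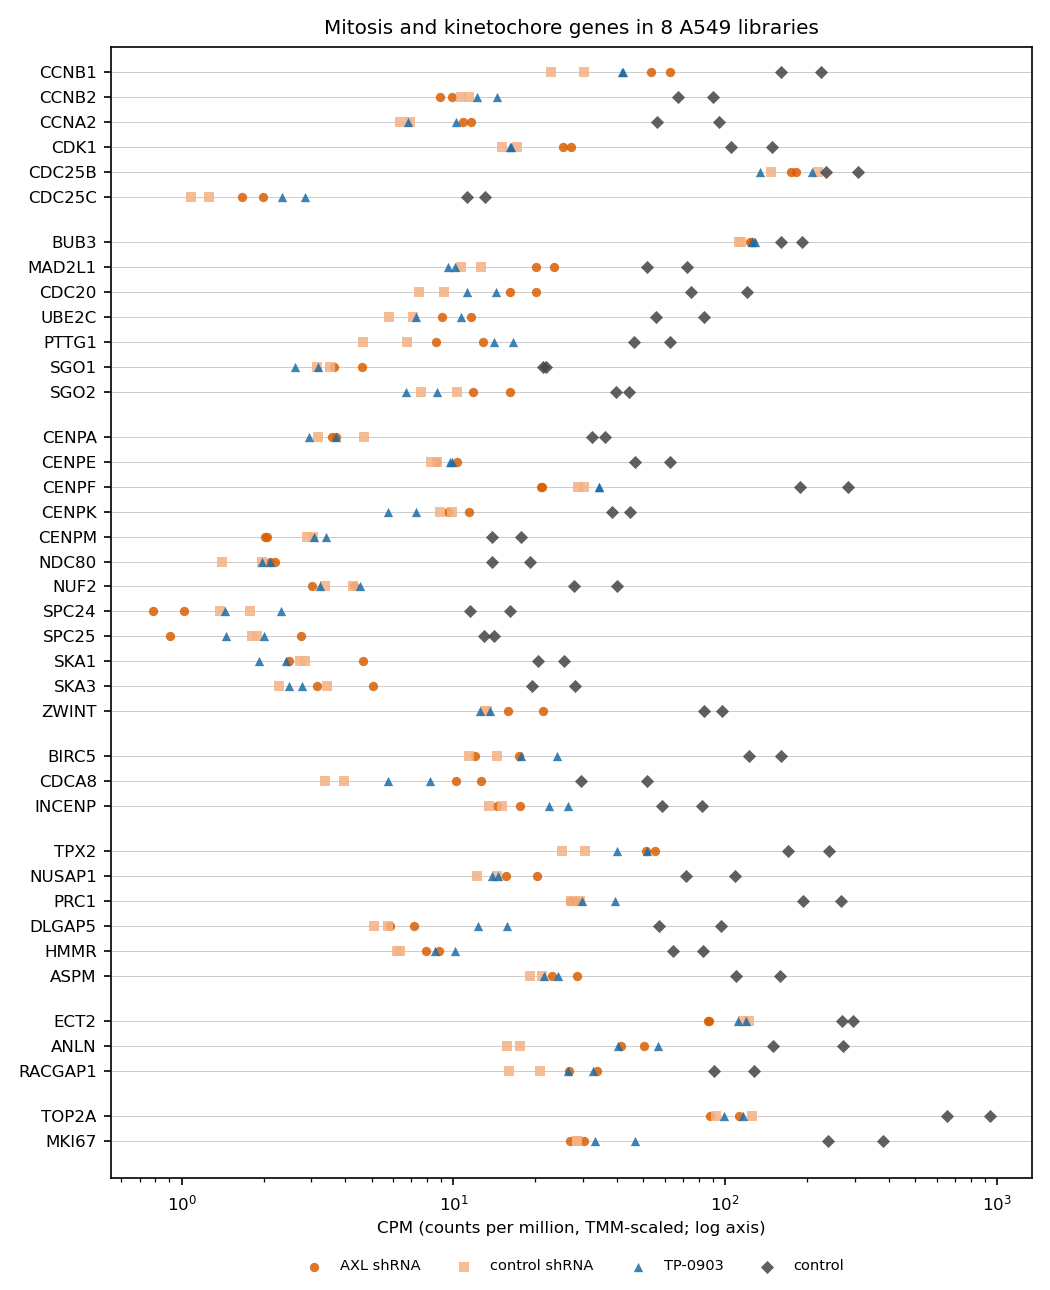
CPM of each member in the 8 libraries on a log axis, with genes in blocks by role; colours and markers give the group, 2 libraries each. The control libraries stand to the right of the other 6 in every row, most narrowly in CDC25B and BUB3.

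**Figure D3:**
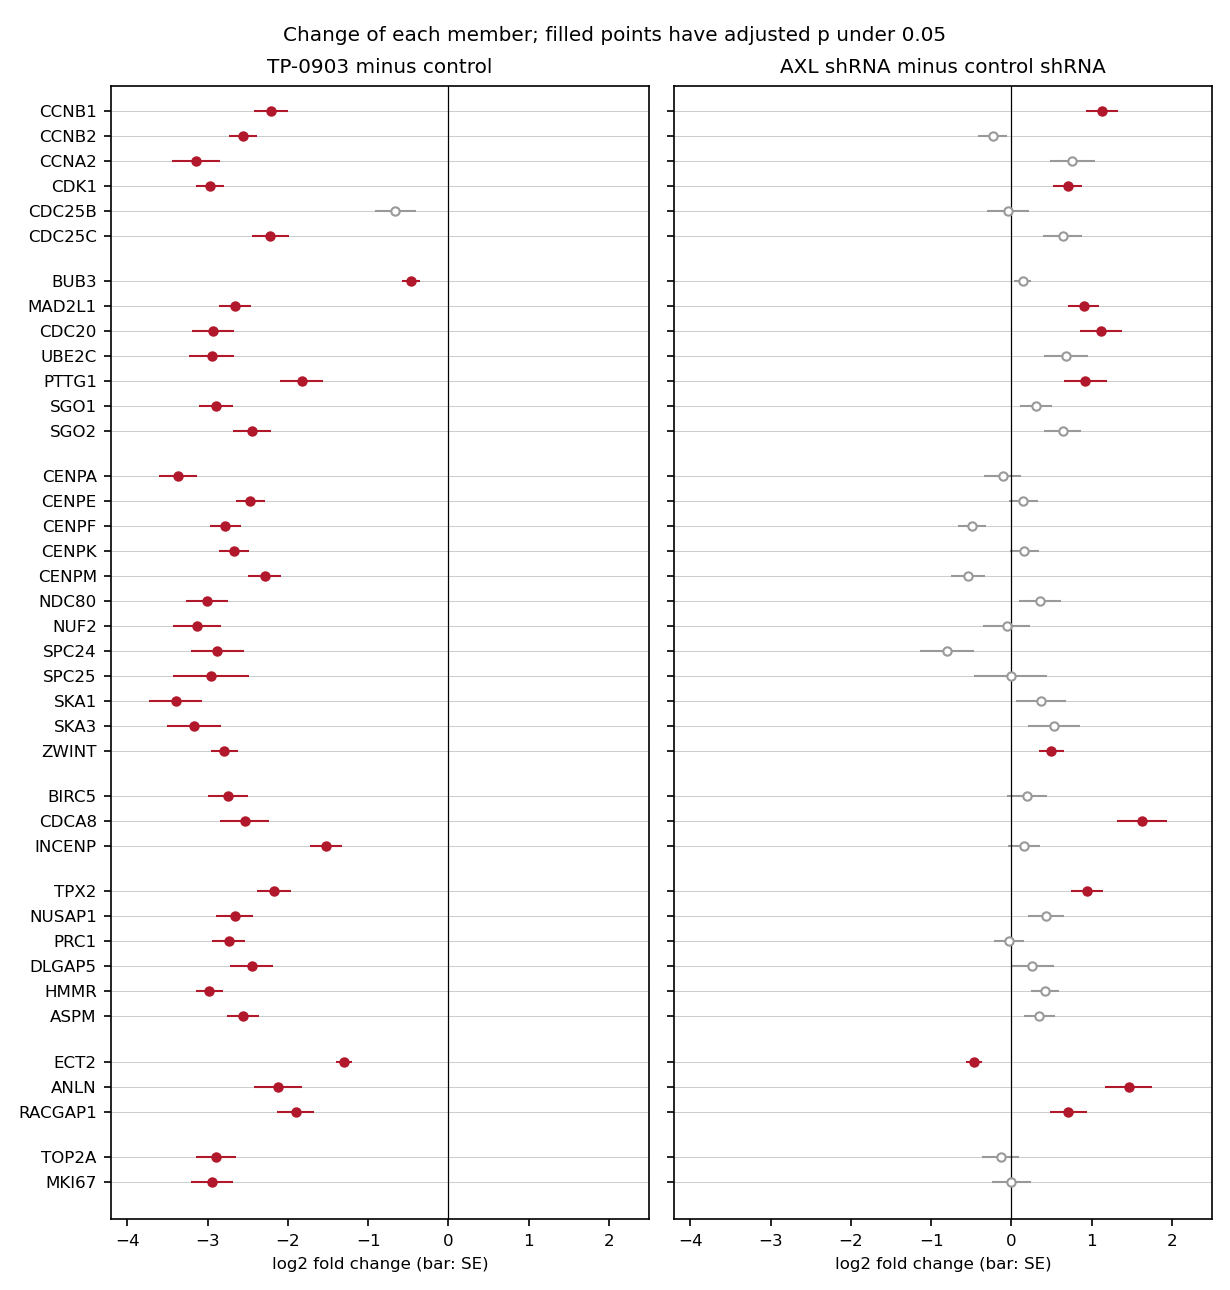
Log2 fold change of each member with its SE, for TP-0903 minus control on the left and AXL shRNA minus control shRNA on the right; filled points have an adjusted p under 0.05. On the left 38 of 39 are filled and below 0, and on the right 10 are filled above 0 and ECT2 below it.

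Among the cyclins, CDK1 and the CDC25 phosphatases, 5 of 6 fell with TP-0903, against 6.35% of all tested genes. With AXL shRNA 2 of the 6 rose and none fell, against 18.5% and 19.0% of all tested genes. CCNB1, cyclin B1, had 42.0 and 41.6 CPM with TP-0903, against 226 and 160 CPM in control cells. In the hairpin lines it had 53.4 and 62.6 CPM with AXL shRNA, against 22.8 and 30.3 CPM with control shRNA. The 4 groups of CCNB1 did not overlap, with control shRNA lowest and control highest. It fell by 2.21 with TP-0903 (SE 0.21, adjusted p = 0.00121) and rose by 1.13 with AXL shRNA (SE 0.20, adjusted p = 0.00528). CDK1, the kinase that cyclin B activates, had 16.2 and 16.3 CPM with TP-0903, against 149 and 105 CPM in control cells. With AXL shRNA CDK1 had 27.0 and 25.3 CPM, against 17.2 and 15.1 CPM with control shRNA. CDK1 with TP-0903 thus sat within the control shRNA range, and with AXL shRNA above it. Its changes were -2.97 with TP-0903 (SE 0.18, adjusted p = 0.00047) and 0.70 with AXL shRNA (SE 0.18, adjusted p = 0.0186). The AXL shRNA call of CDK1 was lost without AXL shRNA P15 (adjusted p = 0.0729), without AXL shRNA P3 (0.0528) and without control shRNA P3 (0.0943).

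CDC25B, the phosphatase with the highest TPM of this role, behaved apart. It had 134 and 208 CPM with TP-0903, against 234 and 307 CPM in control cells. With AXL shRNA it had 182 and 175 CPM, against 147 and 219 CPM with control shRNA. The P17 and P15 libraries were the lower of each pair except with AXL shRNA, and the groups overlapped in the hairpin comparison but not in that of TP-0903. With TP-0903 it differed by -0.66 (SE 0.26, adjusted p = 0.15), or by -0.68 in the fit with a replicate block (SE 0.15, adjusted p = 0.0117). With AXL shRNA its change was -0.04 (SE 0.26, adjusted p = 0.921). CDC25C, the other CDC25 phosphatase, was low throughout, at 2.84 and 2.34 CPM with TP-0903, against 13.1 and 11.2 CPM in control cells. It fell by 2.22 with TP-0903 (SE 0.23, adjusted p = 0.00182), and with AXL shRNA its change was 0.64 (adjusted p = 0.0747). Cyclin B2 (CCNB2) and cyclin A2 (CCNA2), which partners CDK2 and CDK1, fell with TP-0903, with changes of -2.56 and -3.14. With AXL shRNA CCNB2 differed by -0.23 (adjusted p = 0.333) and CCNA2 by 0.76 (adjusted p = 0.0724; 0.00143 with the replicate block).

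All 7 genes of the checkpoint, anaphase and cohesion fell with TP-0903, against 6.35% of all tested genes. With AXL shRNA 3 of the 7 rose, against 18.5% of all tested genes. MAD2L1 encodes MAD2, the checkpoint protein that sequesters CDC20. It had 10.1 and 9.58 CPM with TP-0903, against 72.4 and 51.5 CPM in control cells. With AXL shRNA MAD2L1 had 20.1 and 23.5 CPM, against 12.6 and 10.7 CPM with control shRNA. None of its 4 groups overlapped, with TP-0903 lowest, control shRNA just above it and AXL shRNA next. MAD2L1 fell by 2.66 with TP-0903 (SE 0.20, adjusted p = 0.000646) and rose by 0.90 with AXL shRNA (SE 0.19, adjusted p = 0.00981; 0.0572 without control shRNA P3 and 0.0505 without AXL shRNA P3). BUB3, which binds BUB1 and BUBR1 at kinetochores and also has roles outside mitosis, had 129 and 126 CPM with TP-0903, against 192 and 161 CPM in control cells. AXL shRNA libraries had 123 and 126 CPM of BUB3, against 114 and 112 CPM in control shRNA libraries. Its groups were separate but close, and its fall of 0.47 (SE 0.11, adjusted p = 0.0396) was the smallest of the called members. The BUB3 call was lost without control P17 (adjusted p = 0.184), TP-0903 P17 (0.188) or TP-0903 P4 (0.153). Its difference with AXL shRNA was 0.14 (SE 0.11, adjusted p = 0.347).

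SGO1, shugoshin 1, protects centromeric cohesion and had 3.18 and 2.61 CPM with TP-0903, against 21.9 and 21.3 CPM in control cells. In the hairpin lines SGO1 had 3.62 and 4.61 CPM with AXL shRNA, against 3.14 and 3.50 CPM with control shRNA. The control pair of SGO1 was the closest of its 4 pairs as a ratio, and AXL shRNA lay only just above control shRNA. The change was -2.90 with TP-0903 (SE 0.21, adjusted p = 0.000592) and 0.31 with AXL shRNA (SE 0.20, adjusted p = 0.261). SGO2, its paralogue, fell by 2.45 with TP-0903, and its change with AXL shRNA was 0.64 (adjusted p = 0.0628; 0.00852 with the replicate block). CDC20, the activator of the anaphase-promoting complex, fell by 2.93 with TP-0903 and rose by 1.12 with AXL shRNA (SE 0.26, adjusted p = 0.013; 0.0744 without control shRNA P15 and 0.0647 without AXL shRNA P3). PTTG1, securin, which inhibits separase, fell by 1.83 with TP-0903 and rose by 0.92 with AXL shRNA (SE 0.27, adjusted p = 0.0343; 0.159 without control shRNA P15 and 0.175 without AXL shRNA P3). The fall of PTTG1 had an adjusted p of 0.0521 without control P17 and 0.0525 without TP-0903 P17. UBE2C, the ubiquitin-conjugating enzyme of the complex, fell by 2.95 with TP-0903, and with AXL shRNA its change was 0.68 (adjusted p = 0.0878; 0.00196 with the replicate block). A processed copy, CDC20P1, had 1.83% of the CPM of CDC20, and other listed copies of members had less.

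All 12 centromere and kinetochore genes fell with TP-0903, against 6.35% of all tested genes. Only ZWINT passed with AXL shRNA, where 18.5% of all tested genes rose and 19.0% fell. The median change of these 12 was -2.92 with TP-0903 and 0.07 with AXL shRNA. ZWINT, which binds KNL1 and helps recruit the RZZ checkpoint complex, had the highest mean TPM among them. It had 13.6 and 12.5 CPM with TP-0903, against 97.2 and 83.8 CPM in control cells. In the hairpin lines ZWINT had 15.9 and 21.3 CPM with AXL shRNA, against 13.3 and 13.1 CPM with control shRNA. The AXL shRNA libraries were the more scattered pair, and both lay above the control shRNA pair. ZWINT fell by 2.79 with TP-0903 (SE 0.17, adjusted p = 0.00047) and rose by 0.50 with AXL shRNA (SE 0.16, adjusted p = 0.0472). That rise was lost without control shRNA P15 (adjusted p = 0.132), control shRNA P3 (0.142) or AXL shRNA P3 (0.241). CENPK, a subunit of the constitutive centromere network, had 5.74 and 7.29 CPM with TP-0903, against 44.6 and 38.4 CPM in control cells. With AXL shRNA CENPK had 9.54 and 11.4 CPM, against 8.92 and 9.91 CPM with control shRNA. TP-0903 gave the lowest pair of CENPK, and the hairpin groups overlapped. Its change was -2.67 with TP-0903 (SE 0.19, adjusted p = 0.000562) and 0.16 with AXL shRNA (SE 0.18, adjusted p = 0.527).

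The other kinetochore members lay at low levels in all but the control cells. CENPA, the histone H3 variant that marks centromeres, fell by 3.37 with TP-0903. SKA1 and SKA3, subunits of the complex that tracks microtubule ends, fell too, with changes of -3.40 and -3.17. The NDC80 complex, which grips microtubules, fell as a whole, with changes of -3.01 in NDC80, -3.13 in NUF2, -2.88 in SPC24 and -2.96 in SPC25. CENPE, a kinetochore motor protein, CENPF, a large outer kinetochore protein, and CENPM, another subunit of the constitutive network, also fell, with changes of -2.47, -2.78 and -2.29. In the hairpin lines the lowest of these was SPC24, at 0.785 and 1.02 CPM with AXL shRNA, against 1.78 and 1.38 CPM with control shRNA. Its change of -0.80 had an adjusted p of 0.105, and 0.0402 with the replicate block. CENPF differed by -0.49 with AXL shRNA (adjusted p = 0.075; 0.0211 with the replicate block) and CENPM by -0.54 (adjusted p = 0.0782). SKA3 differed by 0.53 (adjusted p = 0.232; 0.0448 with the replicate block). The changes of CENPA, CENPE, NDC80, NUF2, SPC25 and SKA1 lay between -0.11 and 0.37, none past the threshold. SPC25 was the least certain, with 0.906 and 2.74 CPM in the AXL shRNA libraries, and its fall with TP-0903 had an adjusted p of 0.0565 without control P17, 0.0668 without TP-0903 P17 and 0.0595 without TP-0903 P4. Exons of CENPA overlap SLC35F6, which has higher counts, so the low values of CENPA are uncertain.

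The chromosomal passenger complex places Aurora B on centromeres and the midzone. Its 3 members here all fell with TP-0903, against 6.35% of all tested genes. CDCA8, borealin, had 8.21 and 5.74 CPM with TP-0903, against 51.6 and 29.4 CPM in control cells. With AXL shRNA CDCA8 had 10.2 and 12.6 CPM, against 3.38 and 3.95 CPM with control shRNA. Both AXL shRNA libraries lay above every TP-0903 and control shRNA library. CDCA8 fell by 2.54 with TP-0903 (SE 0.31, adjusted p = 0.00347) and rose by 1.63 with AXL shRNA (SE 0.31, adjusted p = 0.00667), the largest rise among the members. BIRC5, survivin, which also inhibits apoptosis, had 24.1 and 17.7 CPM with TP-0903, against 160 and 122 CPM in control cells. With AXL shRNA BIRC5 had 12.0 and 17.4 CPM, against 11.4 and 14.4 CPM with control shRNA. These hairpin groups overlapped, both below the TP-0903 pair. The change of BIRC5 was -2.75 with TP-0903 (SE 0.25, adjusted p = 0.00115) and 0.19 with AXL shRNA (SE 0.25, adjusted p = 0.579). INCENP, the scaffold of the complex, had 26.3 and 22.4 CPM with TP-0903, against 82.3 and 58.3 CPM in control cells. The AXL shRNA cells held 14.4 and 17.5 CPM of INCENP, against 13.5 and 15.1 CPM in control shRNA cells. The hairpin groups overlapped again and stood below TP-0903. INCENP fell by 1.53 with TP-0903 (SE 0.20, adjusted p = 0.00417), less than its partners, and its difference with AXL shRNA was 0.16 (SE 0.20, adjusted p = 0.566). Of the 3 subunits CDCA8 alone passed with AXL shRNA, where 18.5% of all tested genes rose. Whether its response differs from that of the other subunits was not tested.

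All 6 spindle assembly genes fell with TP-0903, against 6.35% of all tested genes. Of these only TPX2 rose with AXL shRNA, where 18.5% of all tested genes rose. TPX2, which activates Aurora A and nucleates spindle microtubules, had 51.7 and 39.9 CPM with TP-0903, against 241 and 170 CPM in control cells. AXL shRNA libraries had 51.2 and 55.2 CPM of TPX2, against 25.1 and 30.4 CPM in control shRNA libraries. The AXL shRNA and TP-0903 ranges overlapped, with control shRNA lowest. TPX2 fell by 2.17 with TP-0903 (SE 0.21, adjusted p = 0.00123) and rose by 0.94 with AXL shRNA (SE 0.20, adjusted p = 0.0108; 0.0641 without control shRNA P15). PRC1, which crosslinks antiparallel microtubules of the midzone, had 39.2 and 29.7 CPM with TP-0903, against 266 and 194 CPM in control cells. With AXL shRNA PRC1 had 26.9 and 28.3 CPM, against 27.1 and 29.1 CPM with control shRNA. These 4 hairpin libraries were nearly level. Its change was -2.74 with TP-0903 (SE 0.20, adjusted p = 0.000562) and -0.03 with AXL shRNA (SE 0.19, adjusted p = 0.92), a sign that turned with DESeq2's scaling.

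HMMR, a spindle protein that is also a hyaluronan receptor, had 10.1 and 8.52 CPM with TP-0903, against 82.6 and 64.2 CPM in control cells. In the hairpin lines HMMR had 8.85 and 7.95 CPM with AXL shRNA, against 6.21 and 6.37 CPM with control shRNA. Control cells held the high pair and control shRNA the low pair. HMMR fell by 2.98 with TP-0903 (SE 0.17, adjusted p = 0.00047), the smallest unadjusted p of all members, and its difference with AXL shRNA was 0.42 (SE 0.17, adjusted p = 0.0912; 0.0262 with the replicate block). ASPM, which focuses spindle poles, had 21.5 and 24.2 CPM with TP-0903, against 159 and 110 CPM in control cells. With AXL shRNA ASPM had 23.1 and 28.5 CPM, against 21.2 and 19.2 CPM with control shRNA. Its control libraries were well apart from each other but far above the other 6. The change of ASPM was -2.56 with TP-0903 (SE 0.20, adjusted p = 0.000657) and 0.35 with AXL shRNA (SE 0.19, adjusted p = 0.192). NUSAP1, which bundles spindle microtubules, and DLGAP5, which stabilises kinetochore fibres, fell with TP-0903, with changes of -2.66 and -2.45. With AXL shRNA their changes were 0.43 (adjusted p = 0.168; 0.0361 with the replicate block) and 0.26 (adjusted p = 0.485).

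All 3 cytokinesis genes fell with TP-0903, against 6.35% of all tested genes. With AXL shRNA 2 rose and 1 fell, while 18.5% and 19.0% of all tested genes rose and fell, and each of these 3 calls was lost without at least 1 single library. ANLN, anillin, a scaffold of the contractile ring, had 56.6 and 40.2 CPM with TP-0903, against 272 and 150 CPM in control cells. With AXL shRNA ANLN had 41.5 and 50.2 CPM, against 17.6 and 15.8 CPM with control shRNA. The AXL shRNA pair lay inside the TP-0903 range, far above control shRNA. ANLN fell by 2.12 with TP-0903 (SE 0.30, adjusted p = 0.00565) and rose by 1.46 with AXL shRNA (SE 0.29, adjusted p = 0.00823; 0.0503 without control shRNA P3). ECT2, the exchange factor that activates RhoA at the cleavage furrow, had 111 and 119 CPM with TP-0903, against 296 and 268 CPM in control cells. AXL shRNA libraries had 87.4 and 86.1 CPM of ECT2, against 116 and 122 CPM in control shRNA libraries. Both pairs of hairpin libraries were tight and separate, with AXL shRNA lowest of all. ECT2 fell by 1.30 with TP-0903 (SE 0.10, adjusted p = 0.000712) and by 0.46 with AXL shRNA (SE 0.10, adjusted p = 0.0127), the only member to fall in both tests. The second fall was lost without AXL shRNA P15 (adjusted p = 0.0537), AXL shRNA P3 (0.0626) or control shRNA P3 (0.055). RACGAP1, a centralspindlin subunit that binds ECT2, fell by 1.90 with TP-0903 and rose by 0.71 with AXL shRNA (SE 0.23, adjusted p = 0.0431). The rise of RACGAP1 was lost without any 1 of the 4 hairpin libraries, with adjusted p from 0.0525 without AXL shRNA P15 to 0.192 without control shRNA P15. Exons of ANLN overlap KIAA0895, those of CCNA2 EXOSC9, those of CDC25C FAM53C and those of SGO2 KCTD18, each on the other strand, and since no strand is stated for the libraries, reads in the overlaps cannot be assigned.

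TOP2A and MKI67 mark the mitotic chromosome. TOP2A, the topoisomerase that untangles sister chromatids, had the highest TPM of any member in control cells, with a mean of 267. It had 116 and 99.3 CPM with TP-0903, against 944 and 656 CPM in control cells. With AXL shRNA TOP2A had 87.8 and 112 CPM, against 92.3 and 126 CPM with control shRNA. The 6 libraries other than control lay between 87.8 and 126 CPM, and the hairpin groups overlapped. Its change was -2.90 with TP-0903 (SE 0.25, adjusted p = 0.000796) and -0.13 with AXL shRNA (SE 0.23, adjusted p = 0.689). MKI67, the Ki-67 proliferation antigen that coats mitotic chromosomes, had 46.7 and 33.3 CPM with TP-0903, against 381 and 238 CPM in control cells. With AXL shRNA MKI67 had 30.3 and 26.9 CPM, against 28.6 and 28.5 CPM with control shRNA. MKI67 fell by 2.95 with TP-0903 (SE 0.26, adjusted p = 0.000856), and with AXL shRNA its change was 0.00 (SE 0.24, adjusted p = 0.997).

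The responses to the drug and to the hairpin were compared in 1 test of their difference, the TP-0903 effect minus the AXL shRNA effect. It was below 0 in 38 of 39 members past the threshold and above 0 in none, against 10.8% and 9.82% of all tested genes. With the replicate block the difference passed in all 39, against 18.4% lower and 18.6% higher among all genes. The median difference was -2.95. It was largest in CDCA8 at -4.17 (SE 0.44, adjusted p = 0.00178) and CDC20 at -4.06 (SE 0.37, adjusted p = 0.0013). The smallest that passed were BUB3 at -0.61 (SE 0.16, adjusted p = 0.034) and ECT2 at -0.84 (SE 0.15, adjusted p = 0.00896). CDC25B had a difference of -0.62 (SE 0.37, adjusted p = 0.272; 0.0371 with the replicate block).

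The 2 kinds of control cells stood far apart in these genes. Both control shRNA libraries lay below both control libraries in all 39 members, as did 28.4% of all tested genes. In the test 38 of 39 were lower in control shRNA cells and none higher, against 6.09% and 3.06% of all genes. BUB3 and SPC25 lost this call without control shRNA P15 (adjusted p = 0.0822 and 0.0902), control shRNA P3 (0.0768 for both) or control P17 (0.114 and 0.0884). The median difference was -2.98, with a range of -3.82 in DLGAP5 to -0.56 in CDC25B (SE 0.26, adjusted p = 0.215). Control shRNA libraries held a median of 12.2% of the control mean in P15 and 13.6% in P3. This comparison and that of TP-0903 share the control libraries. The hairpin and the P number differ together between these groups, so their parts cannot be told apart. Comparisons with control cells and with control shRNA cells therefore start from different levels, and the AXL shRNA effect was measured where members were already low.

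AXL shRNA and TP-0903 cells, set side by side, held similar amounts of these RNAs, with differences in both directions. MAD2L1, CDK1, CENPK and SGO2 were higher with AXL shRNA, and DLGAP5, ECT2, CENPF and CENPM were lower, 4 of 39 (10.3%) each way against 15% and 15.1% of all tested genes. The 4 lower calls were never all kept when a single library was left out, and the 4 higher calls were not kept each time. MAD2L1 differed by 1.15 (SE 0.19, adjusted p = 0.00537) and DLGAP5 by -1.11 (SE 0.27, adjusted p = 0.0204). DLGAP5 had 5.83 and 7.18 CPM with AXL shRNA, against 15.8 and 12.3 CPM with TP-0903. Both AXL shRNA libraries lay above both TP-0903 libraries in 14 members (35.9%) and below both in 13 (33.3%), against 34.4% and 34.0% of all tested genes. The median difference was 0.06, and the 2 groups also differ in hairpin and P number.

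Libraries of 1 group were not level. In control cells P17 exceeded P4 in 38 of 39 members, by a median of 1.4-fold, with CDC25B the exception. TP-0903 libraries kept that order in 31 members, with a median of 1.18-fold. With AXL shRNA P15 exceeded P3 in 8 members and with control shRNA in 15, with medians of 0.83-fold and 0.95-fold. Over all genes with a mean above 1 CPM, the median log2 ratio within a group was between 0.00 and 0.03.

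Other genes of the cell division programme, chosen by function, moved in the same direction with TP-0903. All 12 mitotic kinesins, 8 of 8 condensin genes, 17 of 18 other spindle and cytokinesis genes, 16 of 19 mitotic kinases and 23 of 24 MCM and replication genes fell, against 6.35% of all tested genes. The smallest p in each of these lists belonged to KIF11, the motor that separates spindle poles, with a change of -3.03 (SE 0.19), SMC4, a condensin core subunit, with -2.51 (SE 0.19), SPAG5, astrin, with -2.57 (SE 0.18), MASTL, the kinase that restrains PP2A in mitosis, with -2.40 (SE 0.16), and MCM5, a subunit of the replicative helicase, with -2.84 (SE 0.14). Outside the members, 11 of 16 further CENP genes and 8 of 11 genes of or linked to the KMN, SKA and RZZ complexes fell. Of 5 genes listed with centromere loading 4 fell, among them ITGB3BP, a subunit of the constitutive centromere network rather than a loading factor. The smallest p in these lists belonged to CENPU at -3.08, KNTC1 at -2.39 and OIP5 at -2.38. In the other lists 8 of 14 cohesin genes fell, and 1 of 5 further checkpoint genes, or 2 of these 5 with the replicate block. Of 18 genes listed for the anaphase-promoting complex, its enzymes and its regulators, 3 fell, or 6 with the replicate block. In these the smallest p belonged to ESCO2, an acetyltransferase of cohesin, at -3.32, FBXO5, the inhibitor EMI1, at -2.44, and TRIP13, which recycles MAD2, at -2.04. None of these lists had a gene that rose with TP-0903 except the kinases, where NEK6 rose by 0.55 (SE 0.14, adjusted p = 0.0486). NEK7 also rose in the fit with the replicate block. Control shRNA cells were also below control cells in many of these genes, where 6.09% of all tested genes were lower. Lower there were 12 of 12 kinesins, 7 of 8 condensin genes, 17 of 18 spindle and cytokinesis genes and 16 of 19 kinases. So were 24 of 24 MCM and replication genes, 12 of 16 CENP genes and 7 of 14 cohesin genes. The KMN, SKA and RZZ list had 8 of 11 lower, and the centromere loading list 5 of 5. Fewer were lower among further checkpoint genes, at 1 of 5, and in the list of the anaphase-promoting complex, at 4 of 18. None of these lists had a gene that was higher there except the kinases, with NEK9.

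With AXL shRNA these lists were mixed. MCM and replication genes rose in 13 of 24 and fell in 1, with ORC6, an origin recognition subunit, up by 2.16 (SE 0.21). Mitotic kinases rose in 8 of 19 and fell in 1, with NEK6 up by 1.76, and kinesins rose in 4 of 12, with KIF18B up by 0.93. Other spindle and cytokinesis genes rose in 6 of 18, while NUMA1, which anchors spindle poles, fell by 1.17 (SE 0.11). Of 18 genes listed for the anaphase-promoting complex, its enzymes and its regulators, 2 rose and 8 fell, led by ANAPC16 at -1.40. Cohesin genes rose in 3 and fell in 4 of 14, led by SMC1A at -1.87 (SE 0.13). Condensin genes rose in 1 and fell in 2 of 8, with SMC4 at -0.80. Further CENP genes rose in 4 and fell in 2 of 16, with CENPS at -1.16, and the KMN, SKA and RZZ genes rose in 2 and fell in 3 of 11, with ZWILCH at 0.83. None of the 5 genes listed with centromere loading passed, the smallest p being that of ITGB3BP at -0.59 (adjusted p = 0.058). With the replicate block MIS18A rose and ITGB3BP fell (-0.58, adjusted p = 0.0223). Of further checkpoint genes 3 of 5 rose and 1 fell, with MAD2L1BP at 0.82. These counts stand against 18.5% and 19.0% of all tested genes that rose and fell. With the replicate block, where 25.6% of all genes rose and 26.1% fell, 12 of 18 other spindle and cytokinesis genes rose and 2 fell. In the same fit 12 of 19 kinases rose and 1 fell, and 6 of 12 kinesins rose and none fell. Of 8 condensin genes 4 rose and 2 fell, and of 11 KMN, SKA and RZZ genes 3 rose and 4 fell. In the list of the anaphase-promoting complex 2 of 18 rose and 10 fell, and 3 of 14 cohesin genes rose and 5 fell.

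**Figure D4:**
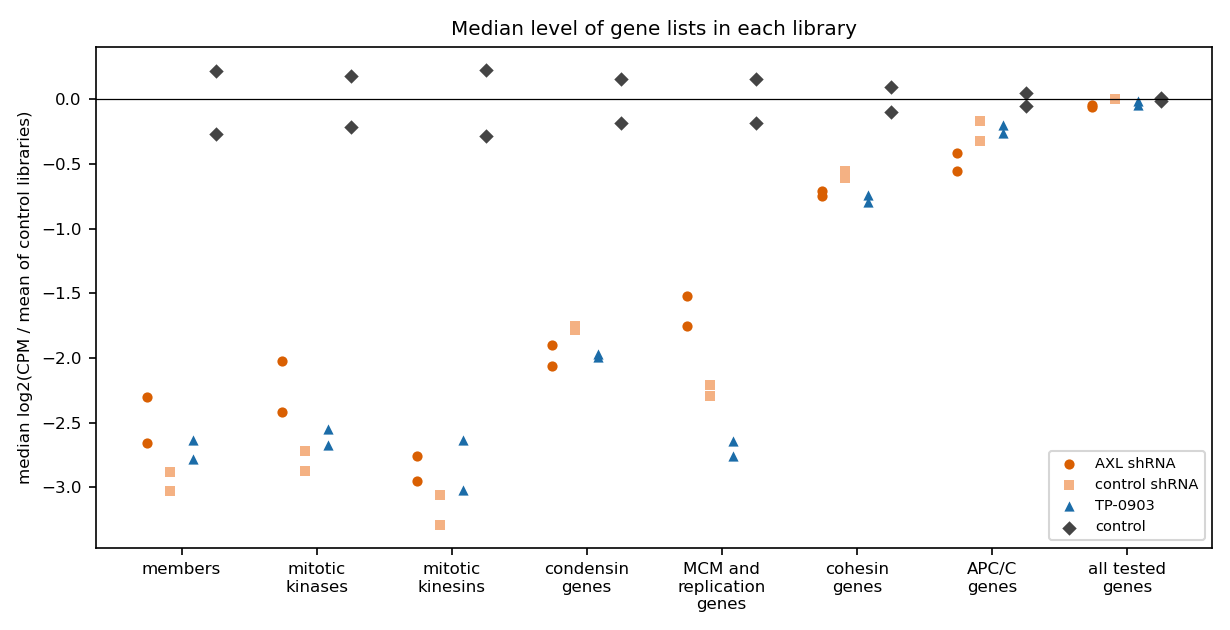
Median over each list of log2 CPM relative to the mean of the control libraries, 1 point per library; colours and markers give the group. The members, kinases and kinesins lie between -2.02 and -3.29 in the 6 libraries other than control. Genes listed for the anaphase-promoting complex, its enzymes and its regulators lie between -0.17 and -0.55.

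Among 24 regulators of the mitotic programme, 11 fell and 1 rose with TP-0903, where 6.35% of all tested genes fell and 4.9% rose. With AXL shRNA 8 fell and 2 rose (3 with the replicate block), where 19.0% of all genes fell and 18.5% rose. FOXM1, a transcription factor of G2 and M genes, had 46.1 and 29.8 CPM with TP-0903, against 186 and 148 CPM in control cells. MYBL2, B-MYB, had 8.83 and 7.24 CPM with TP-0903, against 106 and 83.1 CPM in control cells. Both fell well below their controls, with changes of -2.14 in FOXM1 (SE 0.26, adjusted p = 0.00327) and -3.56 in MYBL2 (SE 0.26, adjusted p = 0.000618). With AXL shRNA their changes were 0.10 and -0.21 (adjusted p = 0.79 and 0.537). Control shRNA libraries had 21.4 and 28.0 CPM of FOXM1 and 12.1 and 12.6 CPM of MYBL2. Their differences from control cells were -2.76 in FOXM1 (SE 0.27, adjusted p = 0.00161) and -2.93 in MYBL2 (SE 0.25, adjusted p = 0.00104). CDKN1A, the p21 inhibitor of cyclin-dependent kinases, had 636 and 602 CPM with TP-0903, against 169 and 268 CPM in control cells. With AXL shRNA it had 979 and 830 CPM, against 309 and 440 CPM with control shRNA. CDKN1A rose in both comparisons, by 1.50 with TP-0903 (SE 0.25, adjusted p = 0.0115) and by 1.27 with AXL shRNA (SE 0.25, adjusted p = 0.00765), the opposite direction to the members in the first and the same as most called members in the second. RBL1, the pocket protein p107, fell by 2.60 with TP-0903 (SE 0.16), and E2F7, a repressor of the E2F family, rose by 2.10 with AXL shRNA (SE 0.36).

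The libraries carried the markers of the cell line. CDKN2A, deleted in A549, was at 0 in all 8, and the 7 epithelial and KEAP1-linked genes summed to 28100 to 32000 CPM with AXL shRNA, 13400 to 13500 CPM with control shRNA, 12900 to 18800 CPM with TP-0903 and 12600 to 17600 CPM in control cells. With AXL shRNA 4 of these 7 rose, KRT8 by 1.94, KRT18 by 1.78, EPCAM by 1.86 and AKR1B10 by 1.32, while TXNRD1 fell by 1.72 (adjusted p = 0.00269). Of 7 fibroblast markers 4 were tested, and COL1A1 and LUM rose with AXL shRNA, as did THY1 with the replicate block, the list summing to 33.3 to 59.4 CPM with AXL shRNA, 18.1 to 18.3 CPM with control shRNA, 15.2 to 25.0 CPM with TP-0903 and 22.8 to 23.9 CPM in control cells. Of 6 leukocyte markers 3 were tested, with ITGAM up and CD14 down with AXL shRNA, and the list summed to 14.0 to 29.5 CPM over the 8 libraries. Endothelial markers summed to 9.87 and 3.27 CPM with AXL shRNA, 2.77 and 0.359 CPM with control shRNA, 1.79 and 0.644 CPM with TP-0903 and 1.97 and 1.12 CPM in control cells, with KDR at 0. The 1 tested, CDH5, differed by 2.18 with AXL shRNA (adjusted p = 0.15) and rose with the replicate block (2.51, adjusted p = 0.00107). Erythroid markers summed to at most 0.752 CPM, although HBA1 rose with AXL shRNA. No marker of these 4 other cell types passed with TP-0903, but with the replicate block CD14 fell (-1.08, SE 0.26, adjusted p = 0.0168). Mitochondrial genes took 6.79% and 7.78% of counts with AXL shRNA, 3.94% and 5.17% with control shRNA, 5.16% and 5.82% with TP-0903, and 3.68% and 3.58% in control cells. The part of these differences in the changes of the members was not tested.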

How the data were processed

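RNA was measured in 8 A549 libraries, 1 deposited gene table each. Per the submitters' processing notes the authors used STAR (2.5.3a), RSEM and GRCh38, but no RSEM version or annotation is stated there. The authors deposited unscaled RSEM expected counts, which are estimates of the reads of each gene. They also deposited TPM, which RSEM corrects for transcript length and library depth, and FPKM, which was not used. No strand is stated for the libraries.

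Rounded expected counts were filtered with filterByExpr (17676 genes left), scaled by TMM and fitted over all 8 libraries with 1 term per group in edgeR (4.0.16, R 4.3.3) by quasi-likelihood, with prior degrees of freedom 3.33 and a biological coefficient of variation of 21.5%. Tests were two-sided, with Benjamini-Hochberg adjustment over all tested genes and a threshold of 0.05. SE is the log2 fold change over the root of F. The fit was tested on simulated data. Library totals were 30067011 to 44217023 counts. In each group, 47.6% to 53.6% of genes differed between libraries by more than counting noise, so none was counted as a repeat.

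Members, roles and lists were chosen by function with earlier results of these data known. All members are named, and every library's value is printed, by role, for the member with the highest TPM, with the smallest p in each main contrast or with the smallest change between the controls, and for members that passed against most others. From each other list the gene with the smallest p in each main contrast is named, with FOXM1, MYBL2 and CDKN1A. DLGAP5, CDC25C, SPC24, SPC25 and MKI67 were given library values after these were seen.

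Libraries with the same number deviated together from their group means, with correlations across genes of 0.559 and 0.626, against 0.177 to 0.38 for libraries of different numbers, so the numbers were taken to pair libraries. With 1 pair of libraries on each side of a group mean, this rests on 1 correlation per comparison. The main fit has no term for this pairing, and the replicate block has one. Alternatives were the replicate block, RLE scaling, no filter, only the libraries compared, DESeq2 (1.42.0), limma (3.58.1) on log2 TPM with a pseudocount of 1, and each library left out. Positions and exon overlaps came from GENCODE, which holds 58039 of the 58302 gene IDs, and promoter windows from RefSeq (GRCh38.p14). Some marker levels and 1 exon overlap are not reported here.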

Additional observations from a re-analysis of the deposited data

Results flagged for a closer look

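The TP-0903 effect minus the AXL shRNA effect, tested in edgeR, was below 0 past the threshold in 38 of 39 members. None passed above 0, while 10.8% of all tested genes passed below 0 and 9.82% above it. In members whose library values are printed, the difference on the log2 scale, TP-0903 effect minus AXL shRNA effect, was -3.33 in CCNB1, -3.67 in CDK1, -0.61 in BUB3, -3.56 in MAD2L1 and -3.21 in SGO1. At the kinetochore and in the passenger complex it was -2.82 in CENPK, -3.29 in ZWINT, -2.94 in BIRC5, -4.17 in CDCA8 and -1.69 in INCENP. Spindle genes gave -3.11 in TPX2, -2.71 in PRC1, -3.40 in HMMR and -2.91 in ASPM, and the others -0.84 in ECT2, -3.58 in ANLN and -2.77 in TOP2A. The 2 responses were measured against controls whose levels of these genes differ. By its groups, the contrast equals control shRNA minus control, less AXL shRNA minus TP-0903. The member medians of those 2 comparisons were -2.98 and 0.06. The test therefore cannot separate a difference of responses from the gap between the controls, and the part of each was not tested.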

How the results depend on the processing

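The fall of the members with TP-0903 kept its direction in every alternative run, with a median of -2.89 to -2.45 without a single library. The test of the difference of effects moved in its median alone, to -2.58 with limma on TPM, and control shRNA minus control likewise, to -2.72, or -3.20 to -2.70 without a single library. For AXL shRNA minus control shRNA the members higher numbered 16 with the replicate block, where 25.6% of all genes rose, and 5 with limma on TPM. Members lower numbered 3 with the replicate block, where 26.1% of all genes fell, and 3 with limma. They numbered 2 with no filter and 2 with the 4 libraries alone. The median there was 0.01 with limma and 0.14 to 0.43 without a single library. On TPM the median of all genes moved by more than 0.1, to -0.15, and the members stood 0.16 above it. With limma on log2 TPM, which changes the test, the unit and the pseudocount together, the calls over all genes were 2008 higher and 4404 lower. For AXL shRNA minus TP-0903 the members higher numbered 8 with no filter, 2 with the 4 libraries alone and 1 with limma. The members lower numbered 9 with no filter and 7 with limma. With limma the calls over all 17676 genes were 1589 higher and 3408 lower. Shares of all genes called with no filter or with the 4 libraries alone are not given for either contrast. The median of AXL shRNA minus TP-0903 ran from -0.06 to 0.19 without a single library.

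Signs turned for members near 0, none of them past the threshold. For AXL shRNA minus control shRNA limma gave -0.05 in SGO1, -0.07 in BIRC5 and -0.19 in INCENP, and PRC1 was 0.00127 with RLE scaling and 0.00126 with DESeq2. Without a single library CDC25B ran from -0.29 to 0.28, BIRC5 from -0.11 to 0.43, PRC1 from -0.08 to 0.02 and TOP2A from -0.33 to 0.11. For AXL shRNA minus TP-0903 limma gave -0.11 in CDC25B and -0.04 in ASPM, and without a single library CDC25B ran from -0.22 to 0.40, ANLN from -0.31 to 0.19 and TOP2A from -0.29 to 0.06. The replicate block, which pairs libraries by P number, changed no called member to uncalled. Causes were not tested. With 2 libraries per group, small changes with AXL shRNA were only partly resolved in the main fit, which has no term for the pairing. In that fit ECT2 at -0.46 and ZWINT at 0.50 passed, and 28 members did not pass. With the replicate block 16 members were called higher and 3 lower with AXL shRNA, while 25.6% of all tested genes were called higher and 26.1% lower.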
